A study of Mus musculus with 18 samples.

Results

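The 10 genes described here make or recycle glutathione or belong to the NRF2 antioxidant programme: Nfe2l2, Keap1, Gclc, Gclm, Gss, Gsr, Txnrd1, Srxn1, Nqo1 and Hmox1. They were chosen by name, with earlier results of these data known. Each was read from the transcript cluster, the array's unit for a gene, that the platform annotation gives its symbol. All 10 were found among 65956 transcript clusters, of which 30638 carry 1 gene symbol. No gene had more than 1 cluster. The only cluster of Gclm also lists Gm6061, a pseudogene within the Gclm locus, so its signal is given as Gclm/Gm6061 and cannot be assigned to either alone.

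Liver RNA came from 18 male C57BL/6J mice, 1 mouse per array, in 6 groups of 3. The mice were obtained at 4 weeks of age, and all were kept in a 12-h light and 12-h dark cycle with free access to food. HFN mice ate a diet with 53% of its energy as fat for 8 weeks and then, still on that diet, received 50 mg/kg NAD+ intraperitoneally each day at ZT11 for about 3 weeks. HF mice ate the same diet and were injected with saline, and CD mice ate chow and were injected with saline. Livers were taken at ZT18, in the dark phase, or at ZT6, in the light phase. Every value below is a log2 signal of a whole-liver array or a difference of such signals. In whole liver, fewer cells of a type and less RNA per cell cannot be told apart.

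Glutathione is a tripeptide that donates electrons to peroxidases and is joined to xenobiotics by glutathione transferases. Glutamate-cysteine ligase, made of the catalytic subunit Gclc and the modifier subunit Gclm, carries out the rate-limiting step, Gss adds glycine, and Gsr returns oxidized glutathione to its reduced form with NADPH. NRF2, encoded by Nfe2l2, is held in the cytosol and handed to the proteasome by Keap1, and once released it enters the nucleus. There, with a small MAF partner, it binds antioxidant response elements and drives Gclc, Gclm, Gsr, Txnrd1, Srxn1, Nqo1 and Hmox1. The liver is the main source of circulating glutathione.

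The reference promoters of the genes show where a core of that element lies near the start site. RefSeq windows of GRCm38.p6, from 250 bases before to 50 after a start, were found for 7 of the 10 genes and gave 9 windows, since Txnrd1 has 3. They were searched on both strands for TGACNNNGC, the core of the antioxidant response element, and for CACGTG, the E-box that circadian CLOCK:BMAL1 can bind. The antioxidant core was found in 1 window each of Nfe2l2, Gclm, Srxn1 and Txnrd1, against 12.4% of all 32851 windows and 14.0% of the 27025 genes. No window of these genes held the E-box letters, which were present in 7.15% of all windows. The 4 windows with a core follow, with the core in capitals, on the strand of the gene from 5′ to 3′. A match is a match of letters in this window only.
Nfe2l2, chr2:75704614-75704913, minus strand, core starting 240 bases before the start site: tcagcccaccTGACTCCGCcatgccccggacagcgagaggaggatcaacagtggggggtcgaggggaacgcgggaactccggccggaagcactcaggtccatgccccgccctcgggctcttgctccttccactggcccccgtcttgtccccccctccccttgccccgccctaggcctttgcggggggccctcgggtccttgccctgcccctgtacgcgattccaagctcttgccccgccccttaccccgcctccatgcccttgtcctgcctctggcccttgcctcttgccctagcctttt
Gclm, chr3:122245307-122245606, plus strand, core starting 134 bases before the start site, on the opposite strand: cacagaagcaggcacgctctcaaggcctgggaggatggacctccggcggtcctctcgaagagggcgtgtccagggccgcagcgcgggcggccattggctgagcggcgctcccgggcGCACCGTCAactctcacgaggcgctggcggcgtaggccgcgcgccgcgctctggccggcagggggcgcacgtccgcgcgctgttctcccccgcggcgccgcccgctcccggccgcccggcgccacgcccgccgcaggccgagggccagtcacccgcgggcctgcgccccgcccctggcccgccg
Srxn1, chr2:152105274-152105573, plus strand, core starting 28 bases after the start site, on the opposite strand: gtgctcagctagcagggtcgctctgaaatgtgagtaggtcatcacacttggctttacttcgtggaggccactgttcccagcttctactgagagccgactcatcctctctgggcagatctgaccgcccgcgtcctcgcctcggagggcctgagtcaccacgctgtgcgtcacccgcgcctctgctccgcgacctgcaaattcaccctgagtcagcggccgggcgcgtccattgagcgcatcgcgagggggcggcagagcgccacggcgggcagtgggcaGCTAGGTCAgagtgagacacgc
Txnrd1, chr10:82858956-82859255, plus strand, core starting 92 bases before the start site, on the opposite strand: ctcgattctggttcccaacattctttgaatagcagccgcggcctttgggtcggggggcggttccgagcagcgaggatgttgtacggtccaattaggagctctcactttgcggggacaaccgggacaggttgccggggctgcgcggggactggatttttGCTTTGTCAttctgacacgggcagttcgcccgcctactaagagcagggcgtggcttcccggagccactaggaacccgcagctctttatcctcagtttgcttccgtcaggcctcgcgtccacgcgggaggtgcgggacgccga

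All 10 genes were above the median of the negative-control probes on all 18 arrays. Their mean signals were at or above the 77.0th percentile of all transcript clusters. The hepatocyte markers matched the labelled tissue, with Alb, Apoa1, Apob, Ttr and Cyp2e1 at the 99.9th percentile, at or near the array's upper cap on every array, and Hnf4a between 10.89 and 12.14. Of the 4 cholangiocyte markers, Krt19 and Epcam were above the negative-control median on 0 of the 18 arrays, Krt7 on 13 and Sox9 on 18. Of the 4 neutrophil markers, Mpo was above it on 0 arrays, S100a8 on 2, S100a9 on 17 and Ly6g on 18. Lymphocyte markers stood out on 1 array: the highest values of Cd3e, Cd8a and Cd79a, 6.39, 6.48 and 6.55, were all on HFN ZT18 replicate 1, against means of 4.23, 4.30 and 4.27. On 5 arrays, 2 of HF at ZT6 (replicates 2 and 3), 2 of CD at ZT18 (replicates 2 and 3) and 1 of CD at ZT6 (replicate 3), the negative-control median was 4.91 to 5.01, against 4.58 to 4.76 elsewhere. The nuclear noncoding RNA Neat1 was 11.09 to 15.16 there and at most 8.35 on the other 13 arrays.

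**Figure D1:**
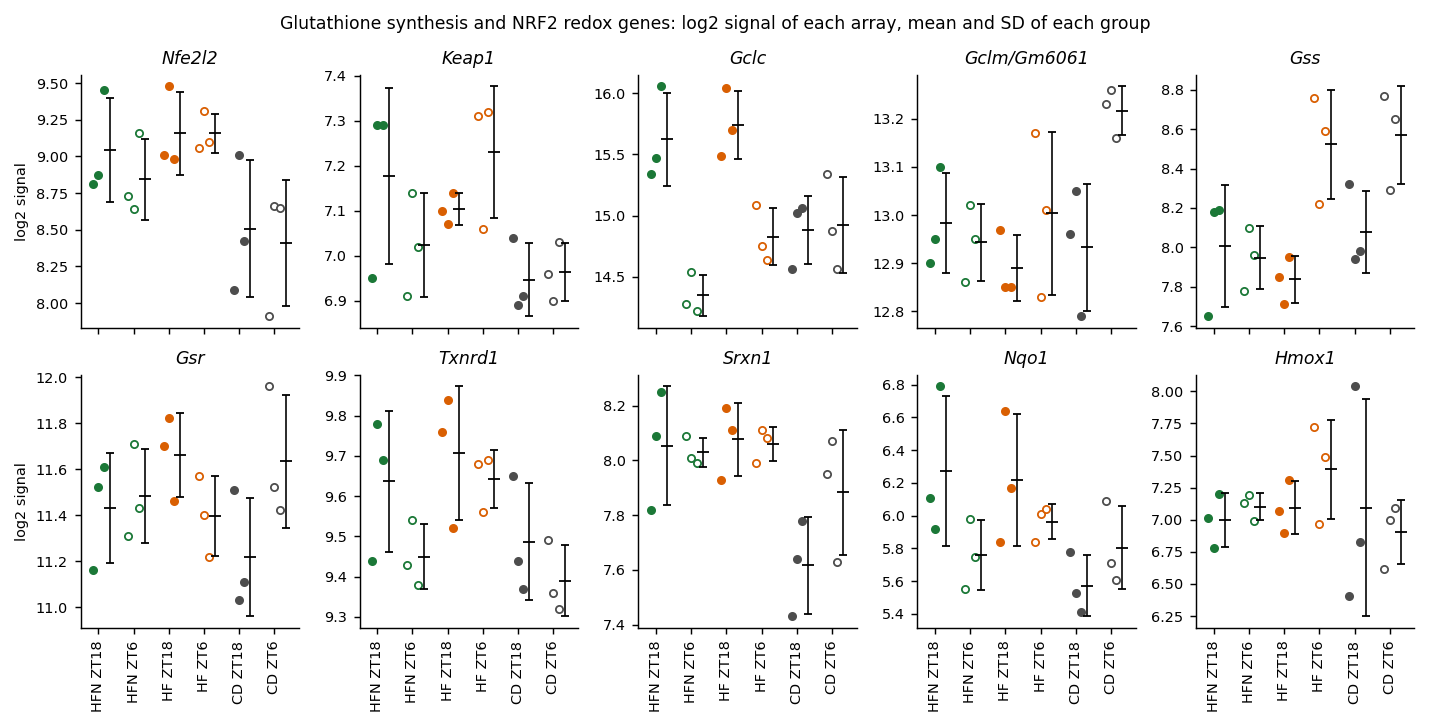
Log2 signal (vertical axes) of each of the 10 genes on the 18 arrays, by group, with filled points for ZT18 and open points for ZT6. Bars give the mean and SD of 3 arrays. Gclc lies at 15.34 or above in HFN and HF livers at ZT18 and at 14.54 or below in HFN livers at ZT6.

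Gclc, the catalytic subunit of the rate-limiting ligase, was the only one of the 10 genes past the test in any comparison. A call needed a log2 difference of more than 0.32 in size and a Benjamini-Hochberg adjusted p below 0.05, taken over the 65956 transcript clusters in a limma fit of all 18 arrays. In HFN livers Gclc read 15.34, 15.47 and 16.06 at ZT18, against 14.28, 14.54 and 14.22 at ZT6. The 2 times did not overlap, and the dark-phase level was 2.43-fold higher, a log2 difference of 1.28 ± 0.23 (SE; adjusted p = 0.033). In that comparison 0.246% of all transcript clusters were called. Groups that did not overlap were common over all transcript clusters. In time their share was 11.3% in HFN, 20.7% in HF and 9.98% in CD livers. At ZT18 the share was 15.2% for HFN minus CD and 15.8% for HF minus CD. At ZT6 it was 9.27% for HFN minus CD, 10.9% for HF minus CD and 13.1% for HFN minus HF.

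In HF livers Gclc read 15.49, 16.04 and 15.70 at ZT18, against 15.09, 14.75 and 14.64 at ZT6. The times did not overlap there either, but the log2 difference of 0.92 ± 0.23 missed the threshold (adjusted p = 0.0826). In CD livers it read 14.56, 15.02 and 15.06 at ZT18, against 15.34, 14.87 and 14.56 at ZT6. These ranges overlapped fully, with a log2 difference of -0.04 ± 0.23 and a 95% interval of -0.53 to 0.45. Averaged over HFN, HF and CD, Gclc was 1.65-fold higher at ZT18 (0.72 ± 0.13 on the log2 scale, adjusted p = 0.00865), in a comparison that called 1.6% of all transcript clusters.

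The group means of Gclc, in increasing order, were 14.35 ± 0.17 in HFN at ZT6, 14.83 ± 0.23 in HF at ZT6, 14.88 ± 0.28 in CD at ZT18, 14.92 ± 0.40 in CD at ZT6, 15.63 ± 0.39 in HFN at ZT18 and 15.74 ± 0.28 in HF at ZT18 (SD, n = 3 each). The 3 groups in the middle differed by less than their SDs, as did the top 2. At ZT18 the 3 HFN and the 3 HF arrays were all above the 3 CD arrays, by a log2 difference of 0.74 ± 0.23 for HFN minus CD (adjusted p = 0.146) and 0.86 ± 0.23 for HF minus CD (adjusted p = 0.118). At ZT6 the 3 HFN arrays were all below the 3 CD arrays, with a log2 difference of -0.58 ± 0.23, which did not pass (adjusted p = 1) and was -0.36 without CD ZT6 replicate 1.

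The difference between the diets in the day-to-night change of Gclc was tested directly and did not pass. It was 0.96 ± 0.32 for the change in HF minus that in CD (adjusted p = 0.49), 0.36 ± 0.32 for HFN minus HF (adjusted p = 0.863) and, in a comparison added after the values were seen, 1.32 ± 0.32 for HFN minus CD (unadjusted p = 0.00111, adjusted p = 0.584). The call in HFN livers is therefore not shown to be particular to them. In each of these 3 comparisons 0% of all transcript clusters were called by limma, and 2, 1 and 4 of the 10 genes had an unadjusted p below 0.05 and a log2 difference beyond 0.32, against 8.08%, 5% and 4.88% of all transcript clusters.

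The call in HFN livers was lost with any of 8 of the 18 arrays left out: HFN ZT6 replicates 1, 2 and 3, HFN ZT18 replicates 2 and 3, HF ZT6 replicate 2, HF ZT18 replicate 3 and CD ZT6 replicate 2. The log2 difference then stayed between 1.06 and 1.42 over all 18 omissions, with adjusted p between 0.0221 and 0.169. It was 1.42 and passed without HFN ZT18 replicate 1, the array with the lymphocyte markers. The averaged call was kept in all 18 omissions (0.65 to 0.79, adjusted p up to 0.0233) and was lost without the 5 arrays of high background (0.47, adjusted p = 0.297), which leaves a single array each in CD at ZT18 and HF at ZT6.

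**Figure D2:**
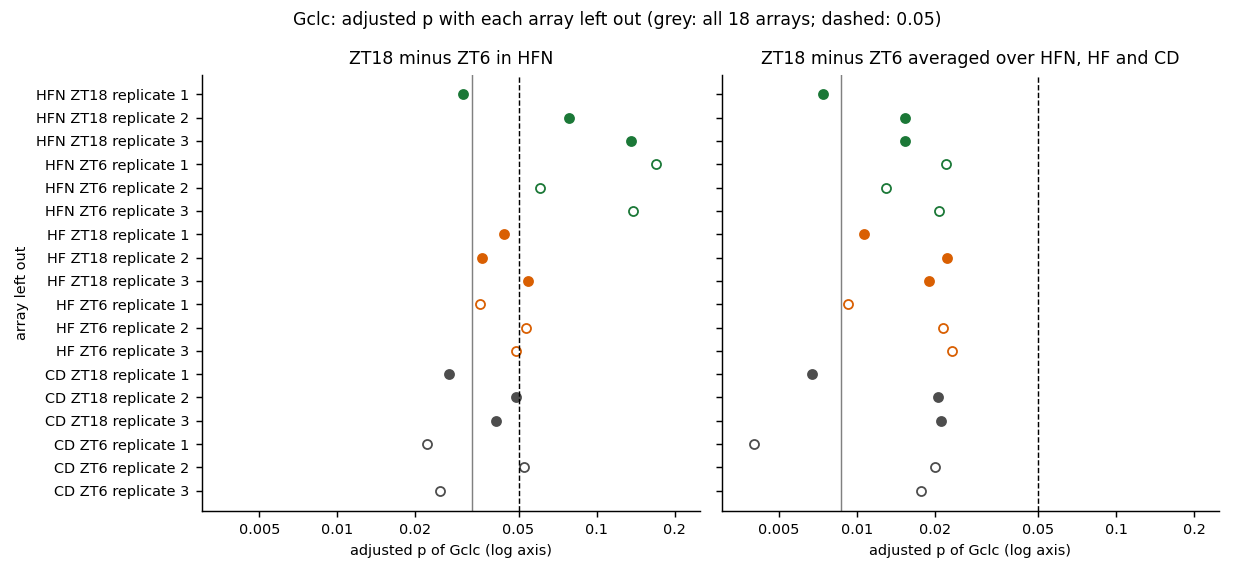
Adjusted p (horizontal log axis) of the ZT18 minus ZT6 difference of Gclc with each array (vertical axis) left out, in HFN livers on the left and averaged over HFN, HF and CD on the right. The grey line is the fit of all 18 arrays and the dashed line 0.05. In HFN livers 8 omissions fall to the right of 0.05, and in the average none does.

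Over the 18 arrays the transcripts whose pattern was most like that of Gclc, among 17812 candidates, were Fem1c (Pearson r = 0.887), Pde9a (0.885) and Spon2 (0.884). These coefficients describe arrays that share groups, times and background and carry no test. The r of Gclc with the negative-control median of the array was -0.34.

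No other member of glutathione synthesis or recycling passed in any of the comparisons. Gclm/Gm6061, the modifier subunit, kept within 12.79 to 13.26 on all 18 arrays. In CD livers it read 12.96, 13.05 and 12.79 at ZT18, against 13.23, 13.26 and 13.16 at ZT6, without overlap, and the log2 difference of -0.28 ± 0.09 did not pass (adjusted p = 0.377). In HFN livers the same difference was 0.04 ± 0.09. At ZT6 the HFN arrays, 12.86, 13.02 and 12.95, were all below the CD arrays, with a log2 difference of -0.27 ± 0.09 (adjusted p = 0.865).

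Gss, which completes the tripeptide, had negative day-to-night differences in HF and CD livers, and none passed. In HF livers it read 7.85, 7.71 and 7.95 at ZT18, against 8.76, 8.22 and 8.59 at ZT6. The times did not overlap, with a log2 difference of -0.68 ± 0.18 (adjusted p = 0.0943). In CD livers the difference was -0.49 ± 0.18 (adjusted p = 0.471), with ranges that overlapped by 1 array. In HFN livers Gss read 7.65, 8.18 and 8.19 at ZT18, against 7.78, 8.10 and 7.96 at ZT6, a log2 difference of 0.06 ± 0.18. The HFN level at ZT6 lay below those of HF and CD at ZT6 on every array, by -0.57 ± 0.18 for HFN minus HF (adjusted p = 0.614) and -0.63 ± 0.18 for HFN minus CD (adjusted p = 0.643). The averaged day-to-night difference of Gss, -0.37 ± 0.10, missed the threshold (adjusted p = 0.0883) and passed it without HF ZT6 replicate 2 (-0.42, adjusted p = 0.0485).

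Gsr, the reductase, read 11.16, 11.52 and 11.61 in HFN, 11.70, 11.82 and 11.46 in HF and 11.51, 11.03 and 11.11 in CD livers at ZT18. At ZT6 it read 11.31, 11.71 and 11.43 in HFN, 11.57, 11.40 and 11.22 in HF and 11.96, 11.52 and 11.42 in CD livers. The groups overlapped, and the largest difference between 2 groups tested was 0.45 ± 0.18 for HF minus CD at ZT18 (adjusted p = 0.295). With the negative-control median of each array as a covariate it was 0.22 (adjusted p = 0.852), and without the 5 arrays of higher negative-control median it was 0.15 (adjusted p = 0.961).

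Nfe2l2, which encodes NRF2, had positive HFN minus CD and HF minus CD differences at both times, none of which passed. It read 8.81, 8.87 and 9.45 in HFN, 9.01, 9.48 and 8.98 in HF and 8.09, 9.01 and 8.42 in CD livers at ZT18. At ZT6 it read 8.73, 8.64 and 9.16 in HFN, 9.06, 9.31 and 9.10 in HF and 7.91, 8.66 and 8.65 in CD livers. All HF arrays were above all CD arrays at ZT6, and 1 CD array, replicate 2, was within the HF range at ZT18. Averaged over both times, HF minus CD was 0.70 ± 0.18 (unadjusted p = 0.00176, adjusted p = 0.137) and HFN minus CD was 0.49 ± 0.18 (adjusted p = 0.276). Neither passed, and the SD of CD livers, 0.47 at ZT18 and 0.43 at ZT6, was the widest of the groups.

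Keap1, the adaptor that directs NRF2 to degradation, stayed within 6.89 to 7.32 on all 18 arrays. Its HF arrays at ZT6, 7.31, 7.06 and 7.32, were all above the CD arrays, 6.96, 6.90 and 7.03, with a log2 difference of 0.27 ± 0.10 (adjusted p = 0.694), under the minimum of 0.32. In these same HF livers the summed signal of 8 Kupffer cell and macrophage markers was 12.43 to 13.22, against 11.61 to 12.23 in CD livers at ZT6. At ZT18 the HF arrays of Keap1 were also all above the CD arrays, by 0.15 ± 0.10 (adjusted p = 0.602). The summed signal of the markers overlapped there, at 11.87 to 11.96 in HF and 11.05 to 12.08 in CD livers. The part of the markers in the HF minus CD differences was not tested.

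Among the NRF2 target enzymes, Nqo1 and Srxn1 were higher in all HFN and all HF arrays than in all CD arrays at ZT18. Neither passed the test. Groups did not overlap at ZT18 in 15.2% of all transcript clusters for HFN minus CD and 15.8% for HF minus CD. Nqo1, a quinone reductase, read 6.11, 5.92 and 6.79 in HFN, 5.84, 6.64 and 6.17 in HF and 5.78, 5.53 and 5.41 in CD livers at ZT18. Its log2 difference was 0.70 ± 0.23 for HFN minus CD (adjusted p = 0.165) and 0.65 ± 0.23 for HF minus CD (adjusted p = 0.234). HFN minus CD was 0.44 without HFN ZT18 replicate 3 and HF minus CD was 0.43 without HF ZT18 replicate 2. Without the arrays of high background, among them CD ZT18 replicates 2 and 3, HFN minus CD of Nqo1 was 0.49 and HF minus CD 0.44. For Srxn1 these were 0.62 and 0.65. At ZT6 the HFN minus CD difference was -0.04 ± 0.23 and the ranges overlapped. Its mean over the 18 arrays was 5.93, close to the negative-control medians of 4.58 to 5.01.

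Srxn1, which repairs overoxidized peroxiredoxins, read 7.82, 8.09 and 8.25 in HFN, 7.93, 8.19 and 8.11 in HF and 7.43, 7.64 and 7.78 in CD livers at ZT18. HFN minus CD was 0.44 ± 0.13 (adjusted p = 0.123) and HF minus CD was 0.46 ± 0.13 (adjusted p = 0.134). Without HFN ZT18 replicate 1, the array with the lymphocyte markers, HFN minus CD of Srxn1 was 0.56 and passed (adjusted p = 0.0493). At ZT6 the groups overlapped, and HFN minus CD was 0.14 ± 0.13.

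Txnrd1, the cytosolic thioredoxin reductase, stayed between 9.32 and 9.84 on all arrays. Its largest difference between 2 groups tested was 0.25 ± 0.11, for HF minus CD at ZT6 (adjusted p = 0.785). There all HF arrays were above all CD and all HFN arrays, with HFN minus HF at -0.19 ± 0.11 (adjusted p = 0.744). Such groups did not overlap in 10.9% and 13.1% of all transcript clusters. Averaged over the times, HF minus CD of Txnrd1 was 0.24 ± 0.07 (unadjusted p = 0.00648, adjusted p = 0.271), under the minimum of 0.32. Hmox1, which degrades haem, had the largest spread within groups, with an SD of 0.84 in CD livers at ZT18, where replicate 2 read 8.04 against 6.41 and 6.83. No difference of Hmox1 had an unadjusted p below 0.05, and the 95% interval of HFN minus HF at ZT18 ran from -0.76 to 0.57.

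**Figure D3:**
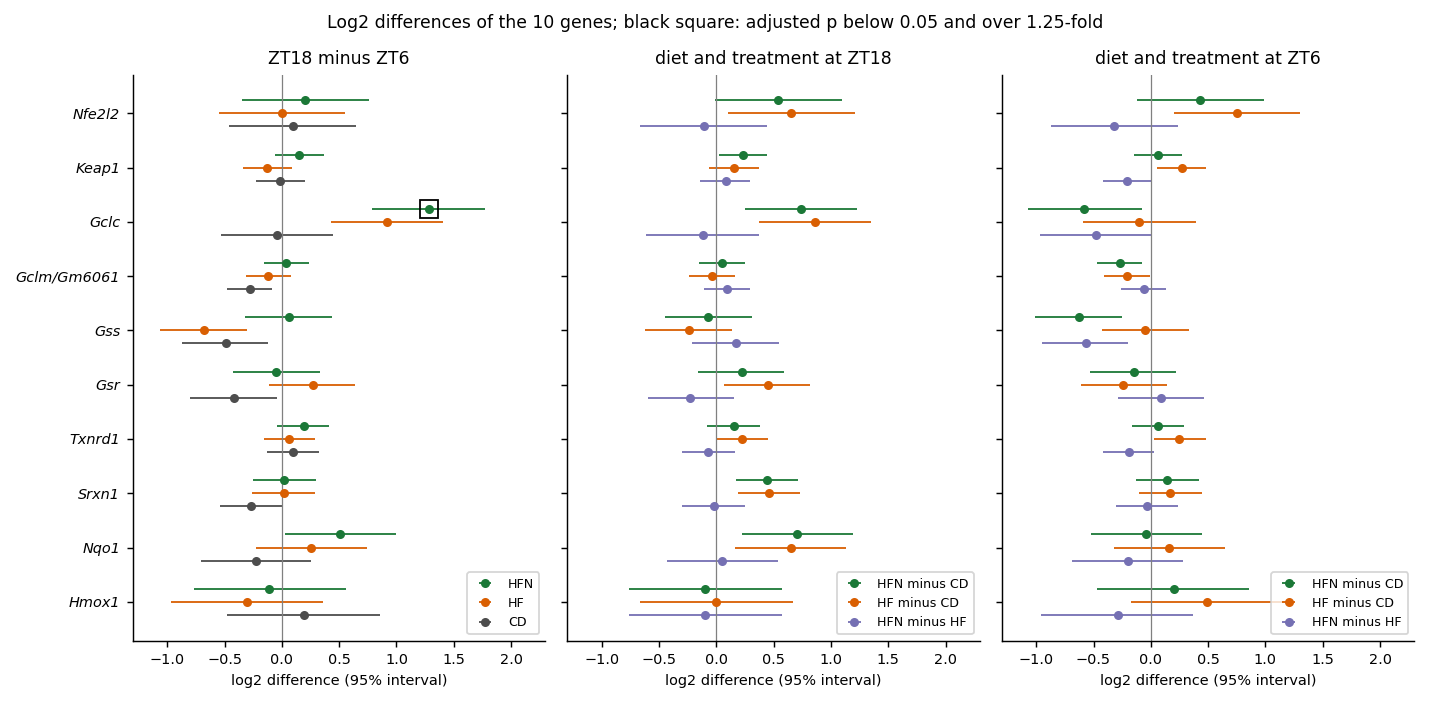
Log2 differences (horizontal axes) of the 10 genes (vertical axis) with 95% intervals, for ZT18 minus ZT6 in each diet and for the diet and treatment comparisons at each time. The black square marks the only call, Gclc in HFN livers at 1.28, and all HFN minus HF intervals include 0 except that of Gss at ZT6.

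Counted over the 10 genes, no diet or treatment comparison held a call. For HF minus CD at ZT18, 0 of 10 passed in the limma fit and 5 had an unadjusted p below 0.05 and a log2 difference of that size, with 7 of 10 differences above 0 and a median of 0.33. Over all transcript clusters 0.606% were called, 8.87% had such an unadjusted p, 49.8% were above 0 and the median was 0. For HFN minus CD at ZT18, 0 passed, 3 had such an unadjusted p and the median was 0.22, with 8 of 10 above 0. Over all transcript clusters 1.06% were called, 10% had such an unadjusted p and 54.2% were above 0. Both comparisons share the CD arrays, of which replicates 2 and 3 were of high background. Without the arrays of high background HF minus CD at ZT18 was 0.15 for Gsr, 0.44 for Nqo1, 0.65 for Srxn1, 1.07 for Nfe2l2 and 1.18 for Gclc. The 10 genes were chosen with earlier results known and lie at or above the 77.0th percentile of signal. Their counts, here and in the other comparisons, are therefore no test against the shares of all transcript clusters.

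At ZT6, 0 of 10 passed for HF minus CD, 1 had such an unadjusted p (Nfe2l2) and the median was 0.17, with 0.044% of all transcript clusters called and 3.36% at such a p. For HFN minus CD at ZT6, 0 passed, 2 had such an unadjusted p (Gclc and Gss, both lower in HFN) and the median was 0.01, with 0.0318% of all called and 2.12% at such a p. Averaged over the times, 0 of 10 passed for HF minus CD, where 3 had such an unadjusted p, against 3.53% of all transcript clusters, and 0.52% of all were called. For HFN minus CD averaged over the times, 0 of 10 passed and 2 had such an unadjusted p, against 5.84% of all, with 0.751% of all called.

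NAD+ treatment itself, HFN minus HF, gave 0 of 10 calls at ZT18, at ZT6 and averaged over both, and limma called 0% of all transcript clusters in each. At ZT18 no gene had an unadjusted p below 0.05 and 4 of 10 differences were above 0, with a median of -0.05. At ZT6, 1 gene, Gss, had such a p and 9 of 10 differences were below 0, with a median of -0.20, against 51.7% of all transcript clusters above 0 and 4.07% at such a p. Of the 3 HF arrays at ZT6, 2 were among those of high background, and the summed signal of the Kupffer cell and macrophage markers was 11.83 to 12.49 in HFN, against 12.43 to 13.22 in HF livers at ZT6. Without the arrays of high background the Gss difference was -0.81 (adjusted p = 0.644), and the part of the markers was not tested. The 95% interval of Gclc for HFN minus HF ran from -0.61 to 0.37 at ZT18 and from -0.97 to 0.01 at ZT6. In time, 0 of 10 passed in HF livers (0.866% of all called) and 0 of 10 in CD livers (0.376% of all called), with 2 at an unadjusted p in each, against 8.83% of all in HF and 4.15% in CD livers.

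Between the 10 genes, 30 of 45 pairs had an r above 0 over the 18 arrays, with a median of 0.30 and a range of -0.40 to 0.71. The highest were Gclc with Nqo1 and Gclm/Gm6061 with Gss, both 0.71. After group means were removed the median was 0.23, the highest was Keap1 with Gss at 0.90 and the lowest Gsr with Hmox1 at -0.43. The arrays share background and normalization, and these values carry no test.

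The wider network was read from 8 lists with 101 genes, of which 88 had a transcript cluster of their own. In these, 20 genes passed in at least 1 comparison, with 40 calls in all. Over all transcript clusters 3.13% passed in at least 1 of the 16 comparisons. The lists were chosen with earlier results of these data known, so their counts are no test against that share. All transcript clusters also include many of low signal: on an array 34.75% to 42.95% of them were above the negative-control median. Of the 40 calls, 15, in 11 genes, were kept with each array left out in turn, and 34 were lost without the 5 arrays of high background.

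Among 11 measured NRF2 partners and regulators, 1 gene was higher and 0 lower in HFN than in CD livers, averaged over both times, and the same counts held for HF minus CD, against 0.751% and 0.52% of all transcript clusters called. It was Nfe2l1, the NRF2 relative that drives proteasome genes. Nfe2l1 read 10.36, 10.54 and 10.58 in HFN, 10.28, 10.16 and 10.33 in HF and 9.90, 9.99 and 10 in CD livers at ZT18. At ZT6 it read 10.07, 10.14 and 10.14 in HFN, 10.08, 10.13 and 10.21 in HF and 9.47, 9.62 and 9.85 in CD livers. Every HFN and every HF array was above every CD array of its time. The averaged log2 difference was 0.50 ± 0.06 for HFN minus CD (adjusted p = 0.00156) and 0.39 ± 0.06 for HF minus CD (adjusted p = 0.00972). Without the 5 arrays of high background HFN minus CD was 0.58 (adjusted p = 0.0206) and HF minus CD was 0.45 and no longer passed (adjusted p = 0.154).

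In time, averaged over the diets, where 1.6% of all transcript clusters were called, 1 of the 11 regulators was lower at ZT18, Bach1, the repressor that competes with NRF2 at Hmox1 and other targets. Its means were 8.04 ± 0.33 in HFN, 8.14 ± 0.12 in HF and 8.09 ± 0.10 in CD livers at ZT18, against 8.72 ± 0.42 in HFN, 8.72 ± 0.20 in HF and 8.48 ± 0.10 in CD livers at ZT6 (SD, n = 3 each). The log2 difference was -0.55 ± 0.11 (adjusted p = 0.0143), and -0.57 without the 5 arrays of high background (adjusted p = 0.186).

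Of 11 thioredoxin, peroxiredoxin and sestrin genes, 1 was lower and 0 higher at ZT18 over the diets, against 1.6% of all called in either direction. Txnrd3, a thioredoxin-glutathione reductase, read 5.91, 5.92 and 6.05 in HFN, 6.03, 5.91 and 5.90 in HF and 6.11, 5.86 and 6.01 in CD livers at ZT18. At ZT6 it read 6.43, 6.46 and 6.42 in HFN, 6.54, 6.46 and 6.46 in HF and 6.66, 6.30 and 6.26 in CD livers. All 9 arrays of ZT18 were below all 9 of ZT6, by a log2 difference of -0.48 ± 0.06 (adjusted p = 0.000254). It passed in every alternative fit, and without the 5 arrays of high background the adjusted p was 0.0195. Prdx3, the mitochondrial peroxiredoxin, was at ZT18 higher in HF livers than in CD livers, by 1.14 ± 0.21 (adjusted p = 0.0262), where 0.606% of all were called. That call was lost with any of 5 arrays left out, HF ZT18 replicates 1, 2 and 3 and CD ZT18 replicates 2 and 3, and without the 5 arrays of high background (0.71, adjusted p = 0.455).

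Of 14 genes of cysteine supply and glutathione turnover, 1 was lower at ZT18 and 1 lower in HF than in CD livers, averaged over the other factor, against 1.6% and 0.52% of all transcript clusters called. Both belong to transsulfuration, which makes cysteine from homocysteine. Cbs, its first enzyme, was lower at ZT18 by a log2 difference of -0.88 ± 0.16 (adjusted p = 0.00968), with means of 11.57 in HFN, 11.54 in HF and 11.76 in CD livers at ZT18, against 12.32 in HFN, 12.55 in HF and 12.64 in CD livers at ZT6. Cth, its second enzyme, was lower in HF than in CD livers by -1.05 ± 0.18 (adjusted p = 0.0148). Cth read 14.17, 15.33 and 14.75 in HFN, 14.12, 14.76 and 14.68 in HF and 15.39, 15.14 and 15.18 in CD livers at ZT18. At ZT6 it read 14.45, 14.85 and 14.37 in HFN, 13.34, 13.83 and 13.96 in HF and 14.96, 15.05 and 15.28 in CD livers. HFN minus CD of Cth did not pass. Neither call held without the 5 arrays of high background (Cbs -0.88, adjusted p = 0.106; Cth -1.27, adjusted p = 0.225), and that of Cth was also lost after quantile normalization (adjusted p = 0.055).

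Of 9 genes listed for NADPH supply, which feeds Gsr and Txnrd1, 4 were higher and 0 lower in HF than in CD livers, averaged over the times. The counts were likewise 4 and 0 in HFN than in CD livers. Of all transcript clusters 0.52% and 0.751% were called. Not all of these genes form NADPH: Taldo1 and Rpia belong to the non-oxidative branch of the pentose phosphate pathway, which does not. The median log2 difference of the 9 was 0.40 for HF minus CD and 0.41 for HFN minus CD, against 0 and 0.02 over all transcript clusters. Me1, cytosolic malic enzyme, was higher by 1.72 ± 0.34 in HFN (adjusted p = 0.0265) and 2.43 ± 0.34 in HF livers (adjusted p = 0.00341). At ZT18 its means were 17.13 ± 0.18 in HFN, 17.92 ± 0.46 in HF and 15.03 ± 0.53 in CD livers (SD, n = 3 each). Taldo1, of the pentose phosphate pathway, was higher by 0.45 ± 0.07 in HFN (adjusted p = 0.0045) and 0.40 ± 0.07 in HF livers (adjusted p = 0.014), and by 0.41 ± 0.06 at ZT18 against ZT6 over the diets (adjusted p = 0.000899). Pgd, the NADPH-forming step after glucose-6-phosphate dehydrogenase, was higher by 0.73 ± 0.15 in HFN (adjusted p = 0.0311) and 0.84 ± 0.15 in HF livers (adjusted p = 0.0155). The fourth in HFN livers was Nadk, which makes NADP+ (0.47 ± 0.10, adjusted p = 0.0362). In HF livers it was Rpia, of the pentose phosphate pathway (0.41 ± 0.08, adjusted p = 0.0462). Left out in turn, 12 of the 18 arrays ended the call of Nadk and 13 that of Rpia. For the HFN calls of Me1 and Pgd the numbers were 6 and 7. Without the 5 arrays of high background the call of Taldo1 in time held (0.46, adjusted p = 0.035) and the 8 diet calls did not. The diet differences were then 1.62 in HFN and 2.36 in HF for Me1, 0.41 and 0.29 for Taldo1, 0.77 and 0.72 for Pgd, 0.56 in HFN for Nadk and 0.32 in HF for Rpia, with adjusted p of 0.11 or more.

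Among other NRF2 targets of mouse liver, mostly conjugating enzymes and exporters, all genes called between the diets were lower on the high-fat diet. Of 17 measured, 0 were higher and 3 lower in HFN than in CD livers averaged over the times, and 0 were higher and 2 lower in HF than in CD livers. The median of the 17 was -0.34 for HFN minus CD and -0.32 for HF minus CD, against 0.02 and 0 over all transcript clusters, of which 0.751% and 0.52% were called. Gstp1, a glutathione transferase, read 16.48, 15.79 and 14.79 in HFN, 15.81, 14.50 and 15.80 in HF and 18.37, 19.55 and 19.06 in CD livers at ZT18. The HFN and HF arrays were all below the CD arrays, with log2 differences of -3.30 ± 0.53 (adjusted p = 0.00906) and -3.62 ± 0.53 (adjusted p = 0.00659). Without the 5 arrays of high background, which include 2 of these 3 CD arrays, they were -2.68 (adjusted p = 0.204) and -3.0 (adjusted p = 0.283), and with only the compared groups fitted neither passed. The HFN minus CD call was also lost without HFN ZT18 replicate 3 (adjusted p = 0.0523). At ZT6 Gstp1 read 16.90, 15.79 and 15.10 in HFN, 17.91, 17.41 and 17.40 in HF and 18.04, 17.89 and 19.13 in CD livers. There the HF and CD ranges overlapped. Averaged over the times Gstp1 was lower by -2.86 ± 0.38 in HFN (adjusted p = 0.00199) and -2.20 ± 0.38 in HF livers (adjusted p = 0.0142). Both calls were lost without the 5 arrays of high background (-2.36 and -1.53). That in HF livers was also lost without HF ZT6 replicate 3 (adjusted p = 0.0502). Mouse Gstp1 and Gstp2 are near-identical, so the signal may be shared.

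**Figure D4:**
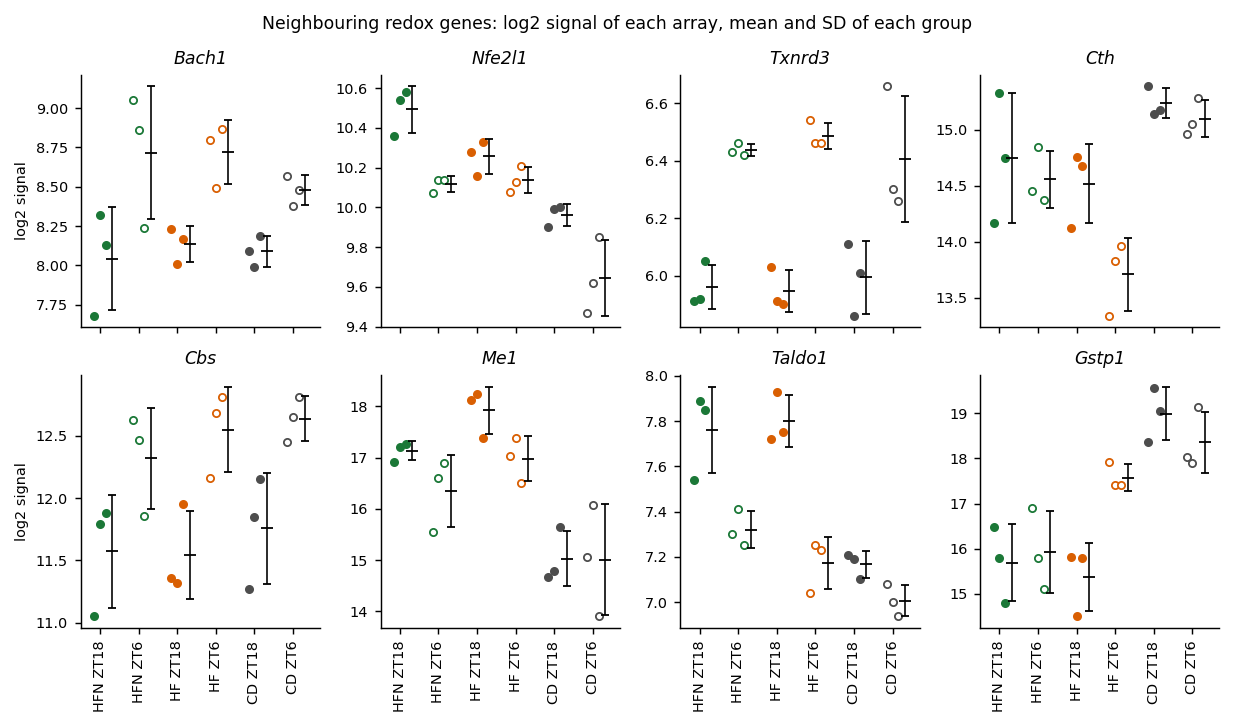
Log2 signal (vertical axes) on the 18 arrays of 8 called genes of the wider network, by group, with filled points for ZT18, open points for ZT6 and bars for the mean and SD of 3 arrays. Txnrd3 separates the times in every diet (at most 6.11 at ZT18 and at least 6.26 at ZT6), and Nfe2l1 separates HFN and HF from CD livers within each time.

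Gsta2, whose near copy Gsta1 was not measured alone, was lower by -1.41 ± 0.27 in HFN (adjusted p = 0.0251) and -1.46 ± 0.27 in HF livers (adjusted p = 0.0267), and Ugdh, which makes UDP-glucuronate, by -0.63 ± 0.13 in HFN livers (adjusted p = 0.0322). In time, where 1 of the 17 passed and 1.6% of all, Gstm4 was lower at ZT18 by -0.69 ± 0.14 (adjusted p = 0.0186). The diet calls of Gsta2 and Ugdh were lost with 6 to 8 of the 18 arrays left out in turn, and that of Gstm4 was kept in all 18. Without the 5 arrays of high background the diet calls did not hold. The differences were then -1.12 in HFN and -1.1 in HF for Gsta2 and -0.54 in HFN for Ugdh. The call of Gstm4 held there (-0.83).

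Of 9 glutathione peroxidases and glutaredoxins, 2 were higher at ZT18 over the diets, Glrx (0.56 ± 0.12, adjusted p = 0.0219) and the mitochondrial Glrx5 (0.39 ± 0.08, adjusted p = 0.0181), and none was lower, against 1.6% of all transcript clusters called. Without the 5 arrays of high background these were 0.36 for Glrx (adjusted p = 0.357) and 0.48 for Glrx5 (adjusted p = 0.0888), and neither passed. The same 2 genes were higher in HFN than in CD livers, by 0.67 ± 0.15 (adjusted p = 0.0468) and 0.48 ± 0.10 (adjusted p = 0.0329), and Glrx5 also in HF livers, by 0.49 ± 0.10 (adjusted p = 0.0377). In these comparisons 0.751% and 0.52% of all transcript clusters were called. The HFN minus CD calls were lost with 13 and 11 of the 18 arrays left out in turn, and the HF minus CD call of Glrx5 with 11. After quantile normalization none of these diet calls held, nor did that of Glrx in time. The call of Glrx5 in time did (0.38, adjusted p = 0.0283). Without the 5 arrays of high background HF minus CD of Glrx5 was 0.33. Of 13 genes of haem and iron handling, 1 was higher and 2 lower at ZT18 over the diets, against the same 1.6% of all. Cpox, of haem synthesis, was higher by 0.47 ± 0.09 (adjusted p = 0.0117), and Fech, its last step, and the iron exporter Slc40a1 were lower by -0.35 ± 0.06 (adjusted p = 0.00571) and -0.52 ± 0.12 (adjusted p = 0.036). Left out in turn, 13 of the 18 arrays ended the call of Slc40a1, 3 that of Glrx in time and 2 that of Fech, which lies close to the minimum of 0.32. The call of Cpox was kept in all 18 omissions but lost without the 5 arrays of high background (0.52). Those of Fech and Slc40a1 were kept there (-0.43 and -0.7). Of the superoxide dismutases and catalase, Cat was at the array's upper cap on all 18 arrays, so no difference could be seen. Of the other 3, Sod1, Sod2 and Sod3, 0 passed in any of the 16 comparisons, and at most 1 in a comparison had an unadjusted p below 0.05 and a log2 difference beyond 0.32.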

How the data were processed

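Total liver RNA of 18 mice was hybridised to mouse Clariom D arrays. The authors normalized the scanner intensities with the Transcriptome Analysis Console under default parameters and deposited log2 values. How the probes were summarized and on which genome build is not given in the sources used here. From 72688 entries, 6732 control probe sets were left out and 65956 transcript clusters were tested. Values are capped at 19.93, which no gene of the 10 reached. Symbols came from the platform annotation: 30638 clusters had 1, 2176 several and 33142 none listed.

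The fit, with limma 3.58.1 in R 4.3.3, gave each of the 6 groups a mean over all 18 arrays (12 residual degrees of freedom, prior 2.27), with 16 contrasts and Benjamini-Hochberg adjustment over all clusters. The 10 genes and the lists were chosen with earlier results of these data known. Named genes were all 10, up to 4 per list and comparison with the largest changes past the test, and the 3 transcripts most correlated with each called member. The arrays come from separate mice, and their number limits the precision. HFN minus HF at ZT18 was also simulated over 65956 clusters with independent normal noise. Changes were added only to clusters above the median signal. Recovered were 13 of 50 changes of 0.5 log2, 31 of 50 of 1, 48 of 50 of 2 and 47 of 50 of 3, with 9 false calls. The simulation held no background shared within arrays, so these rates need not hold for the real data. Alternatives were quantile normalization, the brightest 32978 clusters, an intensity trend with a robust prior, compared groups only, a replicate block, a negative-control covariate, leaving out arrays, and other thresholds. Promoters were searched for fixed letters only.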

Additional observations from a re-analysis of the deposited data

Results flagged for a closer look

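Gclc was flagged because HFN differed from CD livers in opposite directions at the 2 times. All 3 HFN arrays lay above all 3 CD arrays at ZT18 (15.34, 15.47 and 16.06 in HFN, 14.56, 15.02 and 15.06 in CD) and below them at ZT6 (14.28, 14.54 and 14.22 in HFN, 15.34, 14.87 and 14.56 in CD). HFN minus CD at ZT18 less the same difference at ZT6 was 1.32 on the log2 scale, with an SE of 0.32. The test of that difference, added after the values were seen, gave an adjusted p of 0.584 in limma, and leaving out each array in turn gave 1.1 to 1.5 with adjusted p from 0.295 to 0.958.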

How the results depend on the processing

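Over 83 differences of single genes, those that passed or, for the 10 genes, had an unadjusted p below 0.05, and 2311 alternative values, none changed sign, 2031 kept their side of the threshold, 248 no longer passed and 32 newly passed. Apart from 1 omission each for Gss and Srxn1, given above, the new passes arose under the unadjusted threshold. These genes had been admitted by that same unadjusted p, so such passes were largely set in advance. Differences that had not passed could not lose a call, and a looser threshold could not remove one. The counts therefore do not measure stability. With an unadjusted p below 0.05 in place of the adjusted one, the number of the 10 genes called in ZT18 minus ZT6 was 2 in HFN, 2 in HF, 2 in CD and 2 averaged over the diets, against 4.11%, 8.83%, 4.15% and 3.8% of all transcript clusters. At ZT18 it was 3 for HFN minus CD, 5 for HF minus CD and 0 for HFN minus HF, and at ZT6 2, 1 and 1 for the same comparisons, against 10%, 8.87% and 2.81% of all at ZT18 and 2.12%, 3.36% and 4.07% at ZT6. Averaged over the times it was 2 for HFN minus CD, 3 for HF minus CD and 0 for HFN minus HF, against 5.84%, 3.53% and 1.8%. For the day-to-night change it was 4 for HFN minus CD, 2 for HF minus CD and 1 for HFN minus HF, against 4.88%, 8.08% and 5%.

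In HFN livers the count for ZT18 minus ZT6 was 0 after quantile normalization (Gclc 1.18, adjusted p = 0.0855), with only the compared groups fitted (1.28, adjusted p = 0.236), with the replicate block (1.28, adjusted p = 0.0658) and without the 5 arrays of high background (1.28, adjusted p = 0.0686), against 1.28 in the fit of all arrays. Without those arrays the averaged ZT18 minus ZT6 count was also 0. With arrays left out in turn, counts ran from 0 to 1 for ZT18 minus ZT6 in HFN, 0 to 1 for HFN minus CD at ZT18 and 1 to 2 for the averaged ZT18 minus ZT6, and stayed at 0 in the other 13 comparisons. In these fits the lone arrays of a group are assumed to vary like the others.

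The replicate numbers did not pair the arrays: deviations of arrays with the same number had a median correlation of -0.005 over 45 pairs (-0.514 to 0.567, 14 over 0.1). The replicate block moved the count of the 10 genes in no comparison other than HFN in time, where it was 0. The mean of several clusters per gene was not run, because no gene of the 10 had more than 1. Of the 10 genes Nqo1, with a mean of 5.93, was measured with little signal over the negative-control medians of 4.58 to 5.01.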
